A study of Solanum lycopersicum with 24 samples.

Results

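A run of neighbouring loci on tomato chromosome 12, from Solyc12g056740 to Solyc12g096760 in the order of their identifiers, had higher transcript levels in the empty-vector control hairy roots than in the other 7 groups of the study. The members described here are the 175 loci in this range with a mean of at least 4 CPM over all 24 libraries. CPM are counts scaled to the library total after its adjustment by a TMM factor. The range holds 452 loci of the table's 34688. Of these, 73 had no count, 131 had counts but were too low to be tested, and 73 were tested but lay under 4 CPM. All 175 members passed the filter for low counts and none had a group without counts. The range was chosen by the control's CPM against the other groups, so every value of the control against the other groups is given as a description, without a test.

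Hairy roots arise where Rhizobium rhizogenes transforms plant tissue and can be kept as cultures; those studied here are of tomato cultivar M82. The control carries an empty vector. SlMYB41, SlMYB92 and SlWRKY71 were each overexpressed from the constitutive 35S promoter with a 3xFLAG tag in 3 groups. CRISPR/Cas9 knockouts make up the other 4 groups, of SlMYB41, of SlMYB92, and of SlWRKY71 as knockout lines 4 and 5. All 8 groups are transformed hairy roots grown for 9 days in the dark at 25 °C with 3% sucrose. Each library pooled the first 1 cm of 10 root tips. The sample titles give a line number only for the SlWRKY71 knockouts. Groups can also differ in which hairy root lines they hold, which cannot be told apart from the construct here. The protocol names 4 biological replicates per line, and 3 libraries per group were analysed here. Library totals ran from 4852464 to 15372241 estimated counts. The p-values below measure only the spread between these samples.

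In a tomato locus identifier the prefix Solyc12g stands for chromosome 12, and the number after it rises along the chromosome. In plants the transcript level of most genes tends to follow the number of gene copies, with some genes changing less or more than the copy number. Root cultures raised from separate transformation events can differ from each other in their genome as well as in the introduced construct. DNA was not measured here, so these are statements of background only. No gene names could be given to the members, since 0 of the 34688 identifiers were found in the reference table used here, and for the same reason root markers could not be looked up. In whole root tips, fewer cells of a type and less RNA per cell cannot be told apart.

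The identities of the target loci were taken from general knowledge and could not be looked up either. SlWRKY71 (Solyc02g071130) reached 41.5 and 26.2 CPM in WRKY71 overexpression libraries 4 and 5 but 5.21 CPM in library 2, while all libraries outside the group lay at or under 5.55 CPM. SlMYB41 (Solyc02g079280) had 12.4, 13.6 and 7.18 CPM where overexpressed and at most 1.45 CPM elsewhere, and SlMYB92 (Solyc05g051550) had 48.3, 87.6 and 60.6 CPM and at most 0.422 CPM. The library labelled SlWRKY71 overexpression 2 thus stands apart from its 2 partners, and results that rest on the group are given with each library left out. Libraries are named by the number in their column, which runs from 2 to 5 and is not a replicate number of the labels.

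Across the members, the control level divided by the mean level of the other 7 groups, taken on the log scale, had a median of 1.42-fold (log2 of 0.50), with quartiles of 1.23 and 1.72. Over all 13614 loci with at least 4 CPM the median was 0.978-fold, with quartiles of 0.854 and 1.13. The control was higher at 159 of 175 members, or 90.9%, against 45.4% of all loci, and lower at 16. Over the 12 chromosomes, with the members left out of chromosome 12, chromosome medians ranged from -0.05 to -0.01 on the log2 scale. The part of chromosome 12 outside the range had the median of -0.01, with 49.2% of its 675 loci higher in the control.

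**Figure D1:**
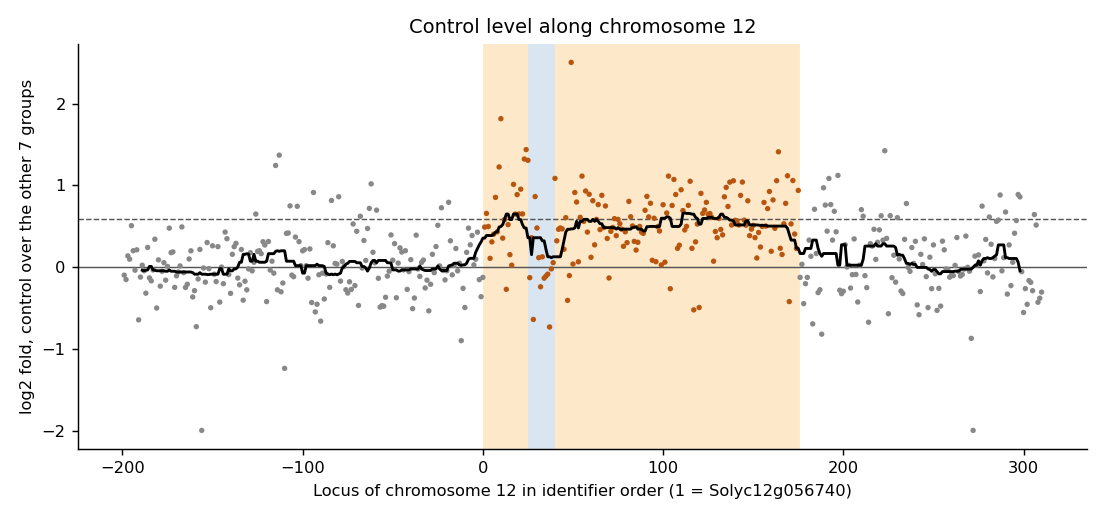
The log2 fold of the control over the other 7 groups (vertical axis) for loci of chromosome 12 with at least 4 CPM, in identifier order (horizontal axis, in loci). Each point is a locus, orange shading marks the range, blue shading its sparsely numbered stretch, the black line is the running median of 25 loci, and the dashed line marks 1.5-fold; the running median leaves 0 at the start of the range, returns towards 0 in the blue stretch and comes back after it.

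Every control library showed the difference. The median ratio of the members to the mean of the other groups was 1.38, 1.39 and 1.35 in control libraries 2, 3 and 5, a mean of 1.37 ± 0.0208 (SD, n = 3). In the 21 other libraries it was 0.907 at the lowest, 0.967 in the median and 1.02 at the highest. Control and other libraries did not overlap in this value. The 7 other groups lay close together, from 0.942 ± 0.0286 with SlWRKY71 overexpressed to 0.996 ± 0.0215 with SlMYB92 overexpressed (SD, n = 3 each). The members took 1.5%, 1.36% and 1.34% of all counts in the control libraries. In the other libraries their share was 0.872% at the lowest, 0.946% in the median and 1.16% at the highest, again with no overlap. Single members were less uniform: 122 stood above the reference in all 3 control libraries, 29 in 2 of them, 14 in 1 and 10 in none. The share of all loci was not counted for these numbers, so nothing more is read from them.

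The members fell into 5 classes by their fold. A full 1.5-fold was taken as 1.3 to under 1.7 and held 76 members, or 43.4%, where 9.46% of all loci lay in that class. A further 45 members, or 25.7% against 2.96% of all loci, stood at 1.7-fold or more. An intermediate 1.2 to under 1.3 held 13 members, or 7.43% against 6.27%. No difference, 0.8 to under 1.2, was found at 35 members, or 20% against 65.2% of all loci. Under 0.8 lay 6 members, or 3.43% against 16.1%. At least 1.3-fold was thus reached by 121 members, 69.1% of them against 12.4% of all loci. These shares are set by the choice of the range, and nothing is read from them beyond the description.

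The error of each fold limits how sharply these classes can be told apart. The standard error of a member's log2 fold had a median of 0.19 and ran from 0.10 to 0.67, while 1.5-fold is 0.58 on that scale. Within 2 standard errors of 1.5-fold lay 126 members, and 29 of these were also within 2 standard errors of no difference. Of the rest, 17 stood more than 2 standard errors above 1.5-fold and 32 more than 2 below it. When each control library was left out in turn, 91 members stayed in their class in all 3 fits, 42 of them in the full class, 28 in the class above it, 18 in the class with no difference and none in the intermediate class.

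In 27 members, 15.4% of them, the 3 control libraries lay above all 21 others, against 0.419% of all loci with at least 4 CPM. These 27 were among 57 such loci in the table, and 14 belonged to the full class and 13 to the class above it. The reverse order, all control libraries below all others, occurred at 0 members against 0.522% of loci. With control library 2 left out, 44 members had the remaining control libraries above all others. That condition is easier, as fewer libraries have to meet it, and the share of all loci was not counted for it. The highest of the 8 group means was in the control at 102 members, or 58.3%, against 10.4% of all loci.

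The full 1.5-fold is seen most cleanly in members whose libraries vary little. Solyc12g096050 had 27.4, 31 and 32.8 CPM in the control libraries and 16.7 at the lowest, 20.6 in the median and 24.4 at the highest of the others, a fold of 1.49 (log2 0.57, SE 0.10). Solyc12g089340 had 51.1, 60 and 54.2 CPM against 29.3, 33.9 and 49.9, a fold of 1.58 (log2 0.66, SE 0.10). Control libraries lay above every other library at both loci. Solyc12g096650 had 64.8, 65.3 and 55.1 CPM against 37, 41.9 and 54.2, a fold of 1.44, likewise without overlap. At Solyc12g089150 the control libraries held 111, 119 and 132 CPM and the highest other library 115, so that the groups touched although the fold was 1.41. Solyc12g095860 was similar, with 76.1, 82.2 and 82 CPM against a highest value of 83.1 elsewhere and a fold of 1.35.

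**Figure D2:**
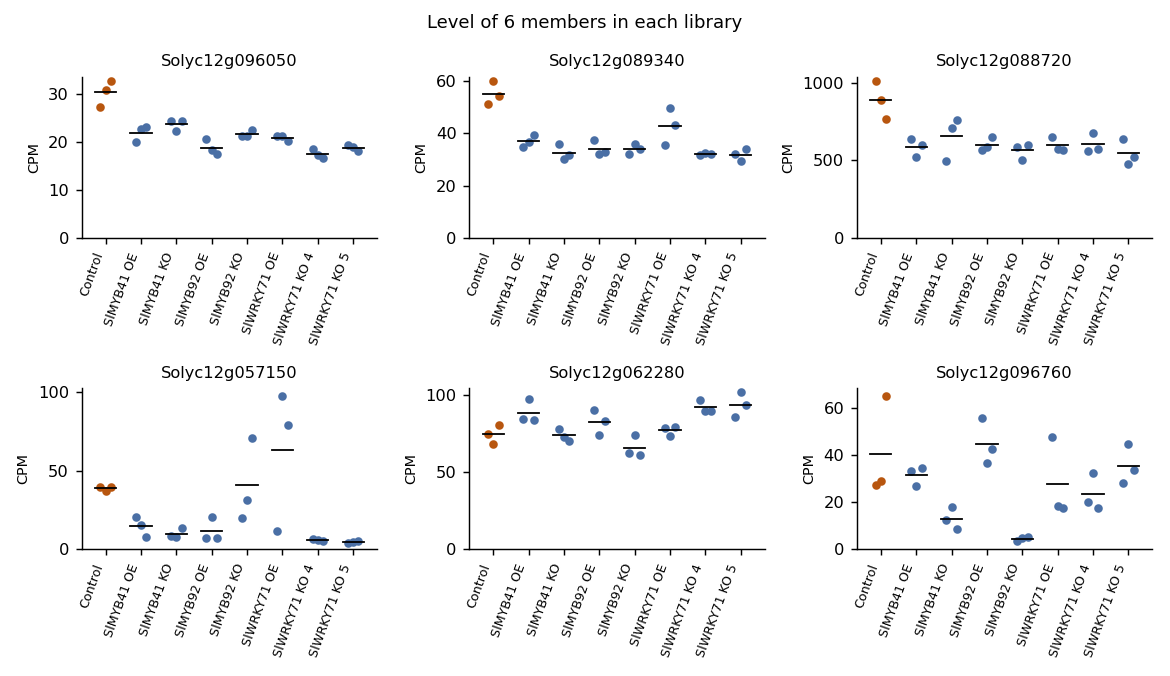
CPM per library (vertical axes) of 6 members by group (horizontal axes; OE, overexpression; KO, knockout), with a point per library and a bar at the group mean. Solyc12g096050, Solyc12g089340 and Solyc12g088720 have all control libraries above the others, Solyc12g062280 does not, and Solyc12g057150 and Solyc12g096760 also vary widely among the other 7 groups.

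Above the full 1.5-fold, the 5 largest folds differed in how much a single library carried them. Solyc12g056860 had 18.4, 31.4 and 32.4 CPM in the control and 2.99, 7.78 and 13.3 as the lowest, median and highest of the others, a 3.52-fold difference with no overlap. Solyc12g096490 had 13.9, 10.3 and 8.27 CPM against 1.86, 3.78 and 6.79, a 2.66-fold difference, also without overlap. The largest fold, 5.67 at Solyc12g088130, had the largest error of the members (SE 0.67 on the log2 scale). Its control libraries held 18.2, 1.27 and 61.6 CPM, and libraries elsewhere ran from 0 to 91, so the groups overlapped over nearly their whole range. Its log2 fold of 2.50 was 1.05 without control library 5 and 3.05 without control library 3.

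The remaining pair of the largest folds are neighbours. Solyc12g057140 had 91.7, 90.3 and 83.7 CPM in the control against 10.4, 27.7 and 145 elsewhere, and Solyc12g057150 had 39.8, 37.3 and 39.5 CPM against 4.19, 8.26 and 97.8. The folds, taken on the log scale, were 2.50 and 2.71, although the highest other library lay above all control libraries at both loci. The next locus, Solyc12g057160, chosen after its values were seen, had 38.1, 41.6 and 40.2 CPM and a fold of 2.47. Control libraries were even at all 3 loci, while the highest values at the first pair came from SlWRKY71 overexpression libraries 4 and 5.

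At the other end, the 5 lowest folds were 0.602 at Solyc12g070127, 0.642 at Solyc12g062480, 0.696 at Solyc12g094620, 0.711 at Solyc12g094710 and 0.747 at Solyc12g096620. Solyc12g062480 had 12.4, 6.83 and 7.8 CPM in the control against 6.8, 14.9 and 24.3 as the lowest, median and highest of the others. The groups overlapped at all 5 loci. Solyc12g062480 and Solyc12g094710 were the 2 members more than 2 standard errors below no difference.

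By expression level, the median fold was 1.52 for the 38 members from 4 to 10 CPM, 1.41 for the 60 from 10 to 30 CPM, 1.41 for the 56 from 30 to 100 CPM and 1.41 for the 21 at 100 CPM or more. Over all loci at the same levels the medians were 1.03, 0.986, 0.963 and 0.944. The class above 1.7-fold held 13 of the 38 lowest members but 1 of the 21 most abundant. The full class held 14 of 38 and 14 of 21 at these levels. The error was larger where levels were low, with a median standard error of 0.26 on the log2 scale at 4 to 10 CPM against 0.18 at 100 CPM or more. Across the 175 members Spearman's rho between fold and mean CPM was -0.13, a description over loci that share the same libraries. The 73 tested loci of the range under 4 CPM had a median log2 of 0.82 with 60 higher in the control.

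**Figure D3:**
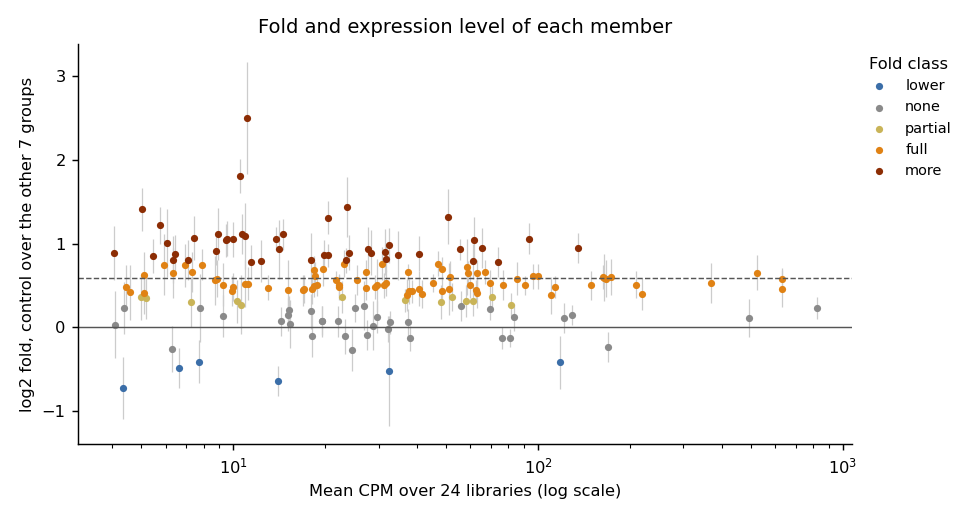
The log2 fold of each member in the control over the other 7 groups (vertical axis) against its mean CPM over 24 libraries (horizontal log axis), coloured by fold class (partial is 1.2 to under 1.3-fold), with grey bars for 1 standard error and the dashed line at 1.5-fold. Members above 1.7-fold are 13 of 38 at the lowest level and 1 of 21 at 100 CPM or more.

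Among the most abundant members, Solyc12g088720 showed the full fold without overlap, with 1010, 892 and 766 CPM in the control against 477, 587 and 761 as the lowest, median and highest of the others, and a fold of 1.50. The most abundant, Solyc12g096700, had 1040, 885 and 888 CPM against 633, 771 and 1270, a fold of 1.17. Solyc12g096300 had 658, 465 and 437 CPM against 287, 426 and 1040, a fold of 1.08, which fell under 1 without control library 2 (log2 of -0.10). Control libraries lay inside the range of the others at these last 2 loci. At Solyc12g096540 the fold of 1.44 came from uneven control libraries of 772, 393 and 328 CPM. The folds of Solyc12g057060, Solyc12g095990, Solyc12g096220 and Solyc12g095910 were 1.57, 1.43, 1.38 and 1.31.

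The difference was not even along the range. It was split, after the values were seen, wherever member identifiers jump by over 1000, which gave 8 runs. The 4 runs of at least 15 members are called dense stretches here, and the 4 smaller runs, which all lie between the first and second dense stretch, were joined as a sparse stretch. The first, Solyc12g056740 to Solyc12g057160, held 25 members with a median fold of 1.57, of which 24 were higher. The second, Solyc12g087850 to Solyc12g089380, held 66 with a median of 1.40 and 62 higher. In the third, Solyc12g094390 to Solyc12g094710, 13 of 15 members were higher with a median of 1.41. In the last, Solyc12g095760 to Solyc12g096760, 54 of 55 were higher with a median of 1.49. In every one of these stretches the 3 control libraries had member medians above all 21 other libraries.

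The sparse stretch, Solyc12g062280 to Solyc12g077590, went against the label of a raised segment. Its 14 members, of 83 loci in that stretch, had a median fold of 0.964, and 6 were higher in the control. Their library medians were 0.895, 0.908 and 1.02 in the control against 0.801, 1.01 and 1.19 as the lowest, median and highest of the others, so that the groups overlapped. Of the 14, 12 were within 2 standard errors of no difference and 4 within 2 of 1.5-fold. Their level was not low, with a median of 29.8 CPM against 25.5 over all members. Solyc12g062280 had 74.5, 68.3 and 80.3 CPM in the control against 61.2, 83.2 and 102, a fold of 0.915, and Solyc12g062870, at a mean of 170 CPM, had a fold of 0.847. The exceptions were Solyc12g062690 at 1.82-fold (SE 0.29 on the log2 scale), Solyc12g062840 at 1.39-fold (SE 0.27) and Solyc12g062290 at 1.28-fold. These loci of the stretch other than Solyc12g062480 and Solyc12g070127 were chosen after their values were seen. Without this stretch 161 members remain, with a median fold of 1.44, 153 or 95% higher in the control and 119 or 73.9% at 1.3-fold or more.

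**Figure D4:**
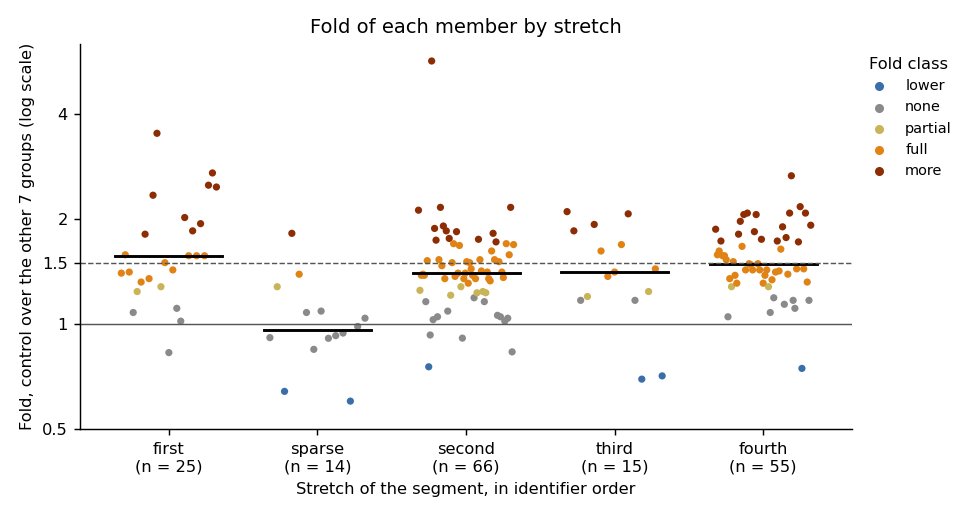
Fold of each member, control over the other 7 groups (vertical log axis), by stretch of the range in identifier order (horizontal axis), coloured by fold class, with a bar at the median and the dashed line at 1.5-fold. The medians are 1.57, 1.40, 1.41 and 1.49 in the dense stretches from first to last and 0.964 in the sparse one.

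**Figure D5:**
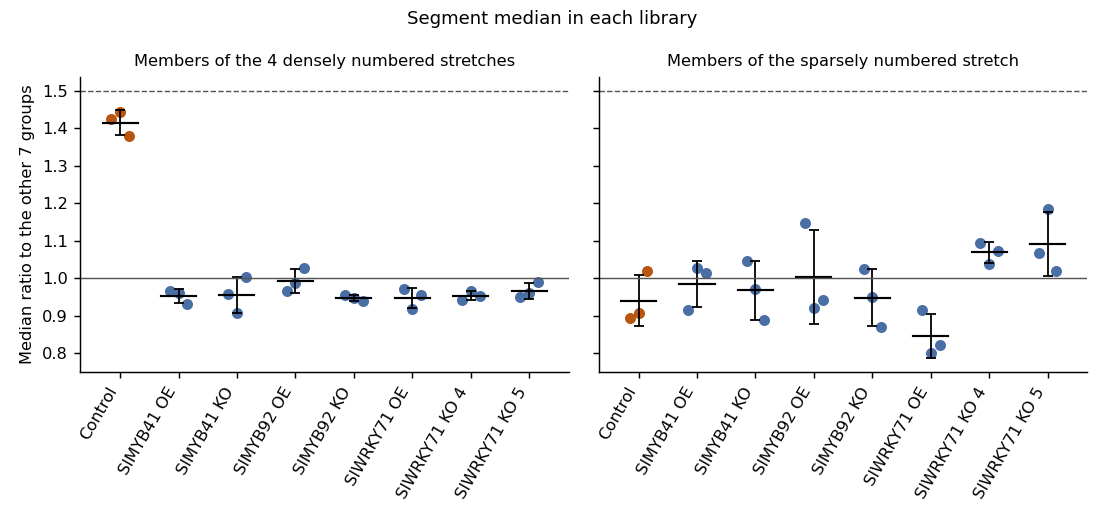
Median ratio of the members to the mean of the other 7 groups (vertical axis) by group (horizontal axis; OE, overexpression; KO, knockout), for the dense stretches together (left) and the sparse stretch (right), with a point per library, a bar at the group mean and SD error bars, n = 3. On the left the control libraries lie at 1.42, 1.44 and 1.38 and all 21 others between 0.907 and 1.03, while on the right the control libraries, at 0.895, 0.908 and 1.02, lie among the others.

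At the near end of the range the values that chose it differed between the loci next to it on each side. Just before it, Solyc12g056640, Solyc12g056650 and Solyc12g056660 had folds of 0.899, 0.779 and 0.917, and just inside it Solyc12g056740, Solyc12g056760 and Solyc12g056770 had 1.40, 1.58 and 1.41. Farther from the end the step was less clear. The loci from Solyc12g056450 to Solyc12g056600, outside, had log2 folds of 0.03 to 0.48, and Solyc12g056780, inside, had 0.11. These were picked after their values were seen. Solyc12g056740, the first member, held 24.5, 25.7 and 23.8 CPM in the control against 14.3, 17.7 and 21.9 as the lowest, median and highest of the others. At the far end, Solyc12g096690, Solyc12g096700 and Solyc12g096760 had folds of 1.32, 1.17 and 1.92, followed outside by 0.917, 1.02 and 0.734 at Solyc12g096810, Solyc12g096830 and Solyc12g096960. In blocks of 25 loci, medians were 0.951 to 1.04 in the 4 blocks before the range. After the far end the return was less even: block medians were 1.10, 1.2, 1.03, 0.967 and 1.21, with 0.827 in the last 10 loci. In none of these outer blocks did any locus have all control libraries above the other 21. Over all loci with at least 4 CPM that share was 0.419%, so nothing is read from the absence. Beyond the far end, 9 consecutive loci from Solyc12g098210 to Solyc12g098320, picked after their values were seen, had log2 folds of 0.33 to 1.12 and a median fold of 1.69. At the expression threshold, Solyc12g062200 and Solyc12g056930 lay just under 4 CPM with folds of 2.37 and 1.24, and Solyc12g088360 and Solyc12g089210 just over it with 1.85 and 1.02.

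Over the genome, the highest median of any 51 neighbouring loci in the control was a log2 of 0.61, in a window starting at Solyc12g089000. Outside chromosome 12 the highest was 0.27, on chromosome 8, and the lowest -0.25. For each of the other 7 groups against its 6 partners, the highest such window was between 0.15 and 0.28 and the lowest between -0.27 and -0.13. The 0.28 was in the SlMYB92 knockout, in a window starting at Solyc12g098150, past the far end of the range. With SlMYB92 overexpressed the lowest window, at -0.21, started nearby at Solyc12g098110. Both windows hold the loci from Solyc12g098210 to Solyc12g098320 described above.

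Against each of the other 7 groups taken singly, all sharing the 3 control libraries, the control was higher by a similar median. The median log2 of the members was 0.52 over SlMYB41 overexpression, with 159 of 175 members higher in the control, and 0.50 over SlMYB41 knockout, with 145 higher. It was 0.50 over SlMYB92 overexpression and 0.50 over its knockout, with 150 and 160 higher. For SlWRKY71 the values were 0.54 over overexpression, 0.50 over knockout line 4 and 0.48 over line 5, with 150, 143 and 141 members higher. Over all tested loci these comparisons had medians from -0.04 to 0.01.

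The 7 groups other than the control entered the choice of the range through their common mean, and their differences among themselves, which it did not use, were tested. In a joint edgeR test over these groups, 48 of 175 members differed at an adjusted p under 0.05, and 24.4% of all tested loci did so. At an unadjusted p under 0.05 it was 40% of members and 38.3% of all loci. All tested loci include those under 4 CPM, and the share among loci with at least 4 CPM alone was not counted. Against all tested loci, the members' count was thus near the background. It varied with SlWRKY71 overexpression, and was 28 without its library 4 and 28 without its library 5. The share of all tested loci was not counted in those fits. Among the 48, the highest group mean was in SlWRKY71 overexpression at 17 and in knockout line 5 at 13, and the lowest was in these groups at 16 each. By class, 19 of the 45 members above 1.7-fold were called, 14 of 76 in the full class and 7 of 35 with no difference, counts that were not tested against each other.

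When each group was set against the mean of its 6 partners without the control, the members' median log2 stayed between -0.04 and 0.03. SlMYB41 overexpression differed at 2 members (background 1.03%), SlMYB41 knockout at 5 (3.45%), SlMYB92 overexpression at 8 (3.86%) and SlMYB92 knockout at 6 (5.1%). Knockout of SlWRKY71 differed at 5 members in line 4 (3.02%) and at 13 in line 5 (5.74%), and SlWRKY71 overexpression at 41 (19.2%), 24 of them higher (13.6%) and 17 lower (5.58%). Each background is the share of all tested loci, including those under 4 CPM. Calls fell in both directions in each of these groups. The SlWRKY71 overexpression count was 5 without library 4, 7 without library 5 and 63 without library 2. It was 0 for SlWRKY71 knockout line 5 without library 3 and 5 without library 5, and for line 4 it was 0 without library 4 and 1 without library 2. For the SlMYB groups, leaving out any library left 0 calls with SlMYB41 overexpression, and 2 without library 3 or 5 of its knockout. SlMYB92 overexpression gave 2, 4 and 3 without libraries 2, 3 and 4, and its knockout 2 without library 5. The share of all tested loci was not counted in these fits, so a shift of the members is not told apart from a shift of all loci.

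Single members did differ clearly between these groups. Solyc12g096760, the last member, held 3.52, 4.82 and 5.26 CPM with SlMYB92 knocked out and at least 8.64 CPM in every other library outside the control. It was lower by a log2 of -2.61 (SE 0.37, edgeR adjusted p = 7.5e-05), a call kept without each library. With SlMYB92 overexpressed it held 55.4, 36.4 and 42.5 CPM and was higher by 1.26 (SE 0.26, edgeR adjusted p = 0.0054), though the adjusted p was 0.10 without library 2. Its control libraries 2 and 3, at 27.1 and 29.1 CPM, lay within the range of the others, and control library 5, at 65 CPM, lay above it. Mean levels of this locus were 40.4 CPM in the control and 25.8 CPM in the others, a smaller ratio than its fold of 1.92 on the log scale. The log2 control fold of 0.94 ran from 0.42 to 1.16 when each control library was left out.

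Solyc12g094620 was highest in SlMYB92 overexpression, at 108, 192 and 88.2 CPM, against a highest value of 41.3 CPM outside that group other than 156 CPM in library 3 of SlWRKY71 knockout line 5. It was higher there by a log2 of 3.97 (SE 0.49, edgeR adjusted p = 1.1e-05), a call kept without each library. With SlWRKY71 overexpressed it held 2.46, 0.993 and 0.416 CPM and was lower by -3.87 (SE 0.91, edgeR adjusted p = 0.0057), with an adjusted p of 0.066 without library 4 and 0.075 without library 5. The control fold of this locus depended on these groups, and its log2 was 0.05 rather than -0.52 with SlMYB92 overexpression left out of the reference, -1.48 without control library 2 and -0.05 without control library 3.

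Solyc12g057150 held 11.7, 97.8 and 79.5 CPM in SlWRKY71 overexpression libraries 2, 4 and 5, and was higher there by a log2 of 2.49 (SE 0.35, edgeR adjusted p = 0.00014), a call kept without each library. In the SlMYB92 knockout it held 20.3, 31.5 and 70.9 CPM and was higher by 1.76 (SE 0.36, edgeR adjusted p = 0.0049), with an adjusted p of 0.28 without library 5. Its neighbour Solyc12g057140 was higher in the same groups, by a log2 of 1.82 and 1.42 (edgeR adjusted p = 0.001 and 0.015), the second with an adjusted p of 0.31 without library 5. Reads of near-identical copies are shared by estimation, and the libraries do not tell the strands of overlapping genes apart. Whether these neighbours are such copies or overlap could not be looked up, so that uncertainty remains.

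Smaller differences with no overlap between the group and the other 18 libraries outside the control were found at 3 further members. The share of all loci with such a difference was not counted, so nothing is read from their number. Solyc12g096390 held 39.8, 40.3 and 49.8 CPM in the SlMYB41 knockout, higher by a log2 of 0.67 (SE 0.15, edgeR adjusted p = 0.0081), and the adjusted p was 0.13 without library 5. Solyc12g096480 held 3.14, 3.98 and 4.95 CPM with SlMYB92 overexpressed, lower by -1.16 (SE 0.27, edgeR adjusted p = 0.015), with 0.17 and 0.076 without libraries 2 and 3. Solyc12g096560 held 41, 37.7 and 40.3 CPM in SlWRKY71 knockout line 5, lower by -0.85 (SE 0.21, edgeR adjusted p = 0.019), and left the threshold without any of its libraries (0.051, 0.15 and 0.077). All 3 loci lie in the last dense stretch, with control folds of 1.42, 2.08 and 1.72.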

How the data were processed

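Estimated counts for 1 transcript per locus are the deposited values. Trim Galore 0.6.6 and kallisto 0.46.2 are named in the submitters' processing notes. The sources used here do not name the annotation. Libraries were poly(A)-selected, unstranded and read as pairs of 75 bp, per the labels' protocols. Of the values 6.18% were not whole (tolerance 1e-09), and they were rounded. Columns were assigned to groups by name, and no 2 libraries of a group were alike within sampling noise (chi-square per degree of freedom from 7.04 to 47.9).

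CPM were computed from these counts with TMM factors (0.909 to 1.12). A quasi-likelihood fit with edgeR 4.0.16 (limma 3.58.1, R 4.3.3) used all 24 libraries, a mean per group and the 18297 loci kept by filterByExpr, with a common dispersion of 0.0789 (coefficient of variation 28.1%). Standard errors are the size of the log2 change over the square root of F. P-values were adjusted over all tested loci (Benjamini-Hochberg), separately in each of the 7 comparisons of a group with its 6 partners. Ratios per library used a pseudocount of 0.5 CPM. The fit was tested on simulated data, where 102 of 172 loci of the range set to 1.5-fold in the control fell in the full class. For SlMYB41 knockout against its 6 partners, 7 of 50 simulated loci set to 1.5-fold were called, and 49 of 50 set to 4-fold. The joint test called 2 and 45 of these. Calls in comparisons with the control, which had been planned as counts, are left out because those values chose the range.

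Loci were named by rule: the 5 highest and 5 lowest control folds, the 8 most abundant, the 6 of smallest error in the full class, 3 loci at each side of both ends, 2 at each side of the CPM threshold, and up to 2 per direction and group without overlap. The members, lists and rules were chosen with earlier results of these data known. Alternatives were other scalings, CPM minimums, DESeq2 1.42.0, no filter and leaving out libraries or reference groups.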

Additional observations from a re-analysis of the deposited data

How the results depend on the processing

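The segment's median log2 of 0.50 in the control was 0.60 with library totals only, 0.53 at a minimum of 1 CPM, 0.53 with SlWRKY71 overexpression left out of the reference, 0.53 without the sparse stretch (added after seeing the data) and 0.50 to 0.55 without each control library. Library totals moved the median of all loci from -0.03 to 0.06, and the members lay 0.54 above it with each scaling tried. Library totals also raised the members with all control libraries on top from 27 to 42. Leaving out a control library gave 33 to 44, where fewer libraries had to meet the condition. The share of all loci was not counted in either case. At 1 CPM the class under 0.8-fold held 12 and the class of at least 1.7-fold 73, and at 10 CPM the first held 3. Without each control library the classes held 5 to 9, 31 to 41, 12 to 13, 69 to 78 and 43 to 47 members from lowest to highest.

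Among the other groups, SlMYB92 knockout had 11 members with no filter and 11 with DESeq2, and SlWRKY71 knockout line 5 had 26 with DESeq2. Leaving out libraries gave 28 to 63 for the joint test, 0 for SlMYB41 overexpression, 2 to 5 for its knockout, 2 to 4 and 2 to 5 for SlMYB92, and 5 to 63, 0 to 6 and 0 to 15 for SlWRKY71 overexpression and lines 4 and 5. The cause of these shifts was not tested, and the share of all tested loci was not counted in these fits. Of 405 alternative control folds of named loci, 403 kept their sign and 23 moved by over 1 SD of the control libraries. Some of these loci were named for this fold and the fits share libraries, so nothing is read from the signs.

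The labels' replicate numbers could not be matched to columns, and the planned fit with them was not run. A replicate block by the number in the column name, chosen after seeing the data, put the median log2 at 0.51 and gave 35 members in the joint test. With it SlMYB41 overexpression had 0 members and its knockout 3, SlMYB92 overexpression 5 and knockout 5, and SlWRKY71 overexpression 22, line 4 2 and line 5 11. With this block the share of all tested loci was not counted either. The numbers are not known to pair libraries. For libraries of different groups with the same number, the correlation of their deviations from the group means had a median of -0.03 over 67 pairs, against 0.02 over 185 pairs with different numbers, and 7 of 24 libraries correlated best with their own number.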
